A study of Mus musculus with 4 samples.

Results

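Dense clusters of open chromatin were described in lung tumours of mice that carried KrasLA1 with or without Dicer1S2D. The starting set was the 60713 autosomal merged regions of accessible chromatin, of which 26402 (43.5%) held a peak of each of 4 libraries and are called shared regions here. Shared regions were joined into chains where the gap between neighbours was 12500 bp or less, which gave 18306 chains of any size. Chains of 6 or more shared regions were kept and are called dense chains. There were 133 of them, with 927 regions, 3.51% of the shared regions. These regions were chosen by their peak calls in all 4 libraries and by their spacing, so their presence in every tumour, their number and their distances are given as a description with no test.

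Accessibility was measured by ATAC-seq, which marks DNA that is not packed away in nucleosomes by letting a transposase cut it and add adapters. All 4 samples were snap-frozen lung tumour, 40 to 50 mg each, from C57B6J mice aged 55 weeks that carried KrasLA1, a latent oncogenic allele that becomes active in scattered cells of the whole animal. The KrasLA1 group had 2 libraries with no further allele named. The KrasLA1;Dicer1S2D group had 2 libraries from mice of genotype KrasLA1/+;Dicer1S2D/+, which also carried a copy of a phosphomimetic allele of Dicer1, the enzyme that cuts microRNA precursors. Replicate 1 was female and replicate 2 male in both groups, so genotype is balanced over sex and replicate number is the same division as sex. Tumours are mixtures of cell types, and a change in the share of a cell type cannot be told apart from a change within its cells. The deposited intervals give where each library has a peak and how wide it is, with no read count, so depth is unknown and width is the only graded value. The number of peaks ranged from 34767 to 50282 per library.

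Genes that set the identity of a cell are often surrounded by many open regulatory elements, and such clusters are known under names such as super-enhancers or stretch enhancers. Housekeeping and histone genes can form clusters of another kind, in which many promoters lie side by side. In lung epithelium, the forkhead factors Foxa1 and Foxa2 and the leucine zipper factors Cebpa and Cebpb act with Nkx2-1 to hold surfactant genes active. AP-1 factors such as Fosb and Junb are switched on downstream of the RAS and MAPK signal.

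The sites of transcription start within these clusters are shown by 6 promoters whose start site lay in a region of a dense chain. They were picked to span the gene groups described below. Each line gives the 250 bases before the start site, 5′ to 3′ on the gene's own strand, from RefSeq for GRCm38.p6. Capitals mark matches, on either strand, to 6 motifs, and a stretch with no capitals holds none of them. The CRE of cyclic AMP response factors was searched as TGACGTCA. The AP-1 site of Fos and Jun factors was searched as TGANTCA. The E-box of helix-loop-helix factors, clock activators included, was searched as CACGTG. The CCAAT box was searched by its own letters. The GC box of SP factors was searched as GGGCGG. The site of ETS factors was searched as CCGGAAG. No motif contains another, though matches can overlap.
Per1, chr11:69098699-69098948, plus strand: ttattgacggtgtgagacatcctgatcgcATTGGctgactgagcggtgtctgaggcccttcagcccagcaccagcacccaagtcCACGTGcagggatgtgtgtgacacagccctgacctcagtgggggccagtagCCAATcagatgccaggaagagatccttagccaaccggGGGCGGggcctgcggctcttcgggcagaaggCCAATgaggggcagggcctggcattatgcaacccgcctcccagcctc
Cry2, chr2:92434070-92434319, minus strand: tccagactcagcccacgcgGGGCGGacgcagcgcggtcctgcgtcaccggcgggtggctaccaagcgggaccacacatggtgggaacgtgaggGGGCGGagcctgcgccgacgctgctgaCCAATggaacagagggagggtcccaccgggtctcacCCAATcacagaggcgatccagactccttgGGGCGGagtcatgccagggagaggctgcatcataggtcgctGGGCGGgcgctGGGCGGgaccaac
Junb, chr8:84978749-84978998, minus strand: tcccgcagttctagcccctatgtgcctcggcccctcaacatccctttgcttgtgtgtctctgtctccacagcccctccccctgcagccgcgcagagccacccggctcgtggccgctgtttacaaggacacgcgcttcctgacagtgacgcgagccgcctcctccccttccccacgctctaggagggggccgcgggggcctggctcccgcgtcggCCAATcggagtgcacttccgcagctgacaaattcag
Mcl1, chr3:95658471-95658720, plus strand: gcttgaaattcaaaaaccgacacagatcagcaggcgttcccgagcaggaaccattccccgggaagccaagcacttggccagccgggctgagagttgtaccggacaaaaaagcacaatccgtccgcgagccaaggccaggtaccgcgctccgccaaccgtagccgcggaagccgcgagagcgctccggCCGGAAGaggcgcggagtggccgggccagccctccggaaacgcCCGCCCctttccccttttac
Foxa1, chr12:57546112-57546361, minus strand: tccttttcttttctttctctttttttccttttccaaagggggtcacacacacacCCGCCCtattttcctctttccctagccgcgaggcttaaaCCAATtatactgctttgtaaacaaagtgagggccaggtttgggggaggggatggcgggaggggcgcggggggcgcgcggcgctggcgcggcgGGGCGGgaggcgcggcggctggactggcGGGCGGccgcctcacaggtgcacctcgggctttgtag
Cebpa, chr7:35119043-35119292, plus strand: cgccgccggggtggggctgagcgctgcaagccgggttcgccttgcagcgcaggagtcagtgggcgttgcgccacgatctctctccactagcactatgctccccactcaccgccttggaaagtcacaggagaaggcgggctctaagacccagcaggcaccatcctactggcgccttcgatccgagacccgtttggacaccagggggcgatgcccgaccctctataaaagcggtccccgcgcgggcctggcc

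The Per1 stretch holds an E-box that begins 166 bases before the start site and 3 CCAAT matches that begin at -221, -115 and -47. Junb has 1 CCAAT match, at -36, and Mcl1 has an ETS match at -63 and a GC box at -20. Cry2 holds 5 stretches of GC box letters and CCAAT matches at -130 and -94. Foxa1 has GC boxes and a CCAAT match, and Cebpa holds no match to any of the 6 motifs. These are matches of letters, and whether a factor was bound at any of them was not measured.

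Over all promoters the motif shares of dense chains were mostly near those of other shared regions. Protein-coding start sites fell in chain regions 233 times, in 197 genes and 94 chains. Within the window from 250 bases before to 50 bases after the start, the E-box was found in 11.2% of these promoters, in 10.8% of the 9416 whose start site lay in another shared region, and in 7.89% of all 20085 autosomal promoters. The ETS letters stood in 22.3%, 20.8% and 11.9% in the same order, and GC boxes in 67.8%, 69.6% and 47.0%. AP-1 letters were found in 5.58%, 4.51% and 7.06%, CCAAT in 36.9%, 38.5% and 38.1%, and CRE in 3.004%, 3.73% and 2.30%. The median promoter held 20, 22 and 14 CpG dinucleotides. For the E-box, ETS, GC box and AP-1 letters, promoters in dense chains lay closer to those in other shared regions than to promoters at large, and for CRE and CCAAT all 3 shares lay within 2 percentage points of each other.

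The chains were short lists of neighbouring elements. There were 72 chains of 6 regions, 26 of 7, 17 of 8, 11 of 9, 3 of 10, 2 of 11, 1 of 12 and 1 of 14. Spans ran from 18536 to 86035 bp with a median of 41370 bp, and all 133 together covered 5.68 Mb. Within chains the median gap between regions was 6185.5 bp. Peaks covered a median of 108 bp per kb of span (mean of the 4 libraries), from 54.4 for the chain in Snx30 to 236 for a histone cluster. Just outside the rule lay 153 chains of 5 regions, with a median span of 29133 bp against 36873 bp for chains of 6. The widest chains just inside were Ccdc40/Tbc1d16/Gaa, 54082 bp, and Ticam1/Fem1a/Plin3, 53333 bp. The widest just outside were Vps26c/Dyrk1a, 44331 bp, and Nid1, 44222 bp, with 5 regions each.

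**Figure D1:**
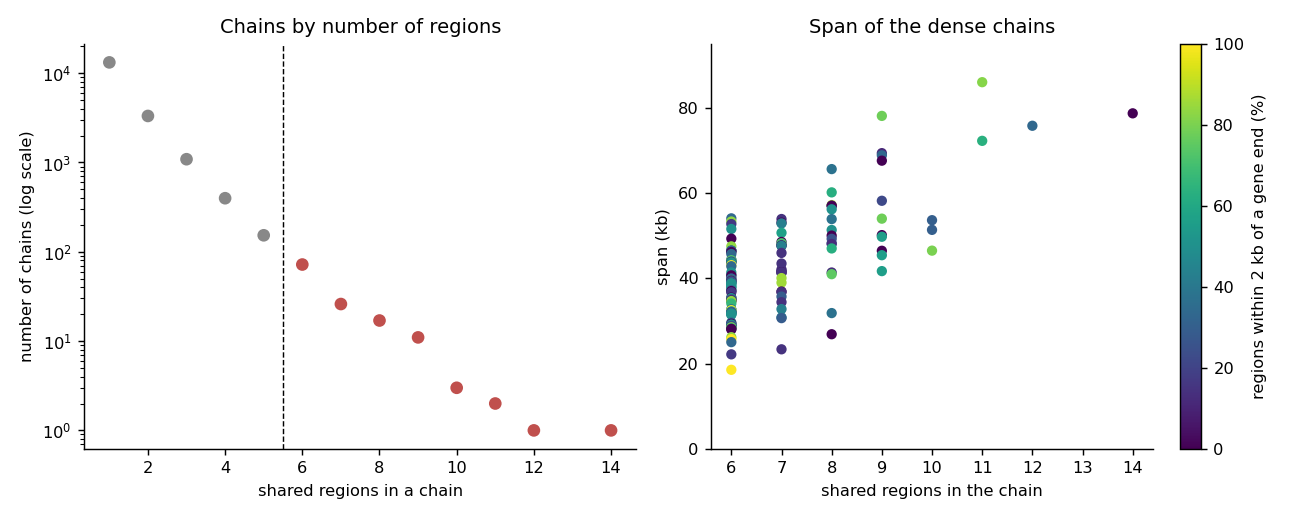
Left, the number of chains (log scale) by the number of shared regions they hold, with the rule's limit of 6 as a dashed line. Right, the span in kb of each of the 133 dense chains by its number of regions, coloured by the percentage of regions within 2 kb of a gene end. Chains of 6 make up 72 of the 133, and spans overlap widely between sizes.

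Some chromosomes held more of their shared regions in dense chains than others. Chromosome 7 had 17 chains, chromosome 8 had 14 and chromosome 12 had 11. As a share of a chromosome's shared regions, chain regions made up 8.49% on chromosome 19, 7.07% on 12, 6.82% on 8 and 6.53% on 7, and 0.769% on 16 and 0.7001% on 18. Pairs of chains also lay near each other. The chain that overlaps Irf2bp2, a co-repressor gene, lay 17282 bp from a chain of 7 regions with no gene in it, and Atoh8 lay 99238 bp from Ggcx/Vamp5.

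By position, 337 of the 927 regions (36.4%) lay within 2 kb of an end of a protein-coding gene, 280 (30.2%) lay elsewhere in a gene and 310 (33.4%) outside genes. The other 25475 shared regions divided into 40.9%, 33.4% and 25.6% in the same order. The 133 spans overlapped 343 protein-coding genes, 1.66% of the 20665 on autosomes. There were 44 chains that overlapped 1 coding gene, 20 that overlapped 5 or more and 14 that overlapped none. At least 50% of the regions were at gene ends in 50 chains, and none were in 23. The gene table used has no strand and no exons, so an end can be the start or the finish of a gene, and exons were not told from introns.

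The largest dense chain held no protein-coding gene. It spans chr12:69436888-69515612 (mm10) with 14 regions, lies 60908 bp from Arf6, which encodes a small GTPase of membrane traffic, and 35100 bp from the predicted gene Gm46353. Of its regions, 1 each overlapped the long non-coding RNAs Gm40434, 5830428M24Rik and Gm31512. Its peaks covered 7820 and 10259 bp in KrasLA1 replicates 1 and 2, and 8380 and 8021 bp in KrasLA1;Dicer1S2D replicates 1 and 2. Values of the 4 libraries are given below in that order. KrasLA1 replicate 2 was high and the other 3 lay close together. Its widest region, chr12:69501761-69503184, was 1235, 1232, 1376 and 1097 bp wide, while the region at chr12:69514882-69515612 was 548, 687, 584 and 202 bp.

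The other 13 chains without a coding gene were named by the nearest one: Wnt7b and Agps with 9 regions each, Ly86, Mbip and Tomm20 with 8, Irf2bp2 with 7, and Irs2, Wdr11, Errfi1, Zfp217, Id2, Igsf3 and Tead1 with 6. A long non-coding RNA gene overlapped 12 of these 14 chains, all but those near Irf2bp2 and Tead1, and 79 of all 133. The chain at chr15:85610677-85678292 lies 28856 bp from Wnt7b, which encodes a Wnt ligand made by lung epithelium. The let-7 genes Mirlet7c-2 and Mirlet7b lie 28311 and 29027 bp from its other end. Peaks covered 7410, 9743, 8181 and 7451 bp in it. The chain near Agps, chr2:75757170-75803640, lies 52507 bp from Nfe2l2, which encodes the oxidative stress factor NRF2, and had 4867, 4972, 4256 and 4224 bp. Both KrasLA1;Dicer1S2D libraries were narrower there before scaling, and the groups overlapped after it. The chain near Mbip, chr12:56252164-56302192, lies 229743 bp from Nkx2-1, the lineage factor of lung epithelium, and had 5835, 9297, 6386 and 6666 bp. Nkx2-1 itself lay in no dense chain.

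Another 9 chains held no gene-end region and overlapped genes, with every region inside a gene except for 1 region of the Hdac7 chain. Iqgap1, a scaffold of the actin cortex, held 9 regions, with 5215, 6478, 5232 and 5346 bp. Dlgap1, Mtcl1, Baiap2l1/Bri3 and Rad51b held 7 each, and Snx30, Mical2, Dapk1 and Hdac7 held 6. Sipa1l3, which encodes a protein that acts on Rap GTPases, had 8 of its 9 regions inside the gene and 1 at its end, with 8770, 9453, 7875 and 8416 bp.

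**Figure D2:**
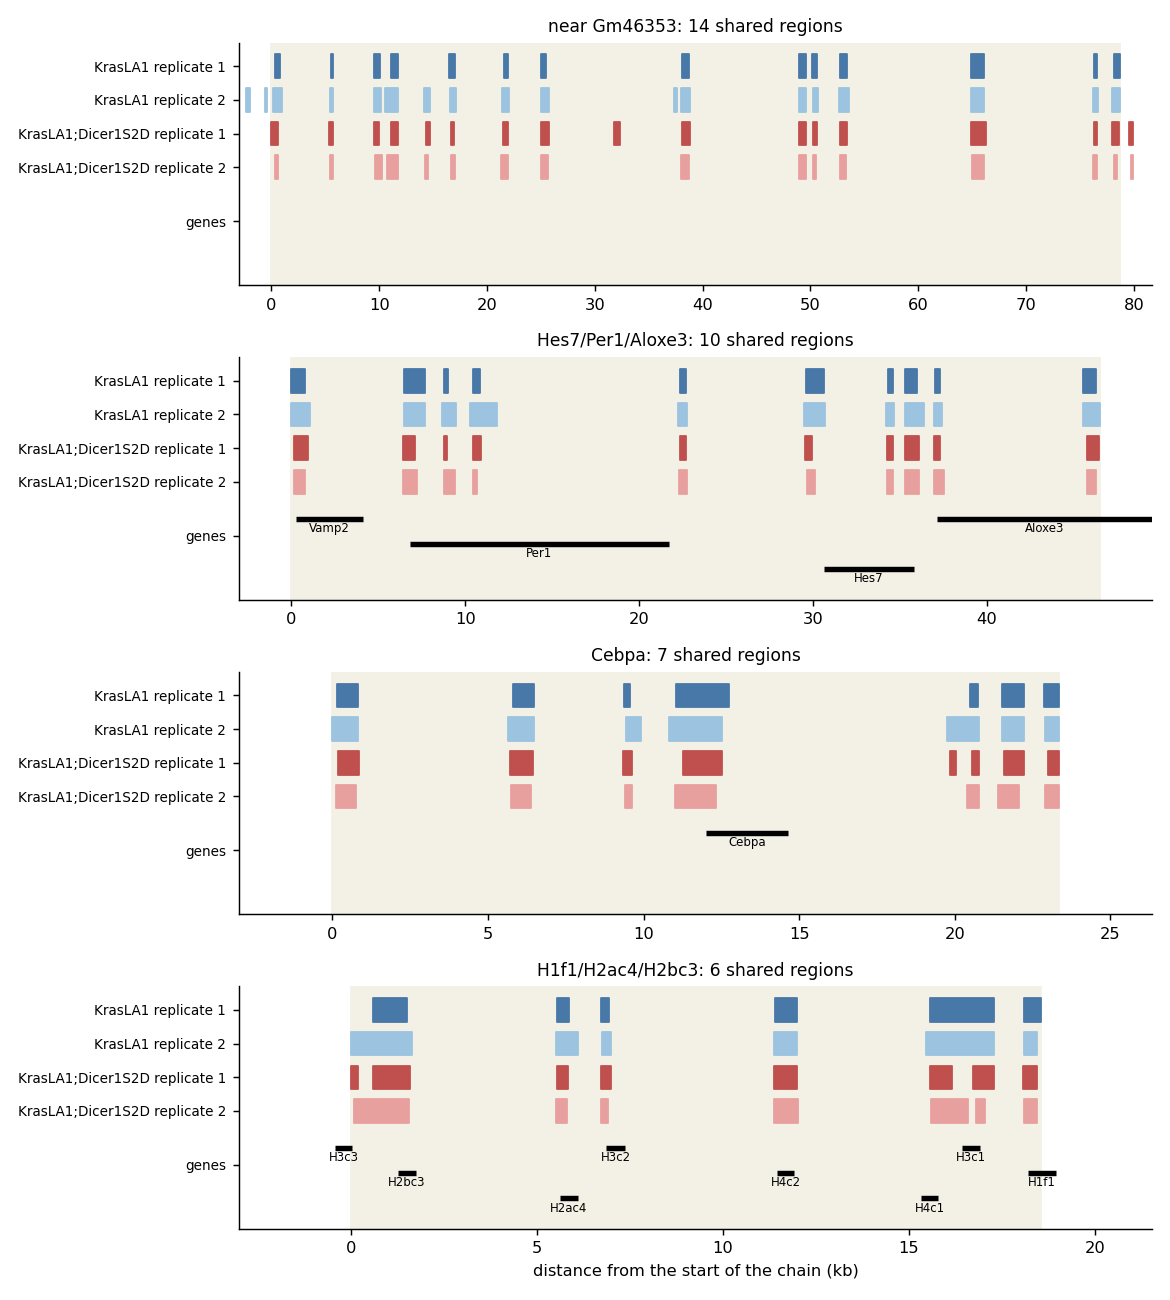
Peaks of the 4 libraries (coloured bars, 1 row per library) and protein-coding genes (black) along 4 chains, by distance in kb from the start of the chain, with the chain's span shaded. The chain near Gm46353 holds 14 shared regions and no coding gene, Hes7/Per1/Aloxe3 has 8 of 10 regions at gene ends, Cebpa has 1 of 7, and the histone chain H1f1/H2ac4/H2bc3 has 6 of 6.

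Regulators of lung epithelium were among the genes in dense chains. Of 18 transcription factor genes listed for lung epithelium, 4 lay in a chain: Cebpa, Cebpb, Foxa1 and Foxa2. All 18 had a shared region in the gene or within 2 kb, as had 17 of 18 alveolar type 2 genes, all but Lyz2. Lists not particular to lung were as full, such as 21 of 21 chromatin regulators. Some such lists also had genes in dense chains, with 2 of 14 housekeeping genes and 2 of 14 nuclear receptor and coregulator genes. Others, such as chromatin regulators and Hox genes, had none there. These counts do not identify the tissue, and the share of all coding genes with a shared region so placed was not computed.

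The Cebpa chain was among the densest. It has 7 regions in chr7:35107283-35130630, with peaks over 210 bp per kb, and only the region on the gene itself was at a gene end. Peaks covered 4728, 6079, 4375 and 4391 bp. The region on the gene, chr7:35118112-35120035, holds the start site shown above and was 1721, 1697, 1249 and 1333 bp wide. Both KrasLA1;Dicer1S2D libraries were below both KrasLA1 libraries in that region and in the whole chain, and the chain's values overlapped once each library was centred on its median over all chains.

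Foxa2 lies in a chain of 6 regions at chr2:148004690-148049096, with 4721, 6658, 4666 and 4379 bp. Its region on the gene was 1364, 1474, 1223 and 1247 bp wide, and the widest region, chr2:148038323-148040244, was 751, 1885, 861 and 518 bp. KrasLA1 replicate 2 stood out there alone. Foxa1 lies in a chain of 6 at chr12:57515762-57547200, with 3203, 5119, 3526 and 4032 bp. The region on its printed start site, chr12:57545041-57546155, was 669, 1092, 840 and 823 bp wide. The mean difference between groups had opposite signs at 2 of its regions: chr12:57534902-57536446 was 244, 1538, 1129 and 1529 bp, and chr12:57542155-57543438, inside Foxa1 and 1527 bp from its end, was 788, 1255, 241 and 388 bp. Cebpb lies with Tmem189 in a chain of 6 at chr2:167659248-167698323, with 3463, 4820, 3589 and 2924 bp. Its start site region was 1425, 1457, 1237 and 734 bp, lowest in KrasLA1;Dicer1S2D replicate 2.

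Of the alveolar type 2 genes, 2 of 18 lay in a chain, Cebpa and Sftpd. Sftpd encodes surfactant protein D, a lectin of airway defence, and shares its 7 regions at chr14:41145970-41198861 with Mbl1, a gene for a related lectin. Peaks covered 5291, 7249, 5389 and 5163 bp. Sftpa1 lies 9597 bp outside that span and Sftpb lies 30095 bp from the Ggcx/Vamp5 chain. No gene of the alveolar type 1 (12), airway (14), gastric (25), lymphocyte (17), endothelial (14) or fibroblast and smooth muscle (14) lists lay in a dense chain. A shared region in the gene or within 2 kb was found for 9 of 25 gastric genes and 8 of 17 lymphocyte genes. The same held for 6 of 14 endothelial genes and 3 of 14 fibroblast and smooth muscle genes. This share was not computed over all coding genes, so no list is called low or high. Of 14 myeloid genes, 7 had such a region. Cd68, a macrophage gene with Tnfsf13 in a chain of 9 regions, was in a dense chain. That chain, chr11:69662255-69716263, had 4415, 5793, 3453 and 4082 bp.

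Over all 20 gene lists, 16 of 322 genes (4.97%) lay in a dense chain, against 1.66% of all autosomal coding genes. The lists are a chosen set and not a sample of all genes, and they include genes not particular to lung, such as gastric, Hox and housekeeping genes. They were written with earlier results of these data known, so this is a count and not a test. Beside those named, the genes were Ier3, a target of MAPK signalling, Mcl1, Fosb, Junb, Myh9, Nr1d1, Thra, Actb, Tubb5 and Hes1. Lists of NF-kB and cytokine genes, microRNA processing, chromatin regulators, Hox genes and receptor and RAS genes had none.

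Of 16 AP-1 and early response genes, 3 lay in a dense chain, Mcl1, Fosb and Junb, and 13 in none. Mcl1, which encodes an anti-apoptotic BCL2 relative, and Adamtsl4 share 10 regions in chr3:95653521-95704897, with 5706, 8500, 5064 and 5841 bp. The Mcl1 start site region, chr3:95658412-95659666, was 1186, 1250, 769 and 1211 bp wide, low only in KrasLA1;Dicer1S2D replicate 1. Fosb lies with Ercc1 and Rtn2 in 9 regions of chr7:19295823-19345585, with 4425, 5326, 3910 and 4017 bp. The region on the Fosb start site was 385, 464, 318 and 384 bp. Junb lies with Hook2, Rnaseh2a, Prdx2 and Rtbdn in 9 regions of chr8:84952762-84998190, with 5829, 7201, 4551 and 4972 bp. Both KrasLA1 libraries were above both KrasLA1;Dicer1S2D libraries there. The start site region of Junb was 437, 580, 295 and 303 bp, and the region at chr8:84984606-84986283, between Junb and Hook2, was 1104, 1620, 461 and 511 bp. The other regions varied in pattern. The region at chr8:84965632-84966298 was 665, 558, 466 and 461 bp, chr8:84975686-84976778 was 524, 1084, 419 and 564 bp, and chr8:84989924-84991118, in Hook2, was 1171, 1173, 1152 and 1166 bp.

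The circadian clock genes Per1, Per2, Cry2 and Nr1d1 each lay in a dense chain. They are 4 of 15 clock genes, a list drawn up after the chains had been seen, so the count has no test and supports nothing. The proteins of Per1, Per2 and Cry2 hold back the clock's activators, which bind the E-box, and Nr1d1 encodes the repressor REV-ERB alpha. The chain of Hes7, Per1, Aloxe3 and Vamp2, chr11:69088269-69134771, has 10 regions, 8 at gene ends, with 6099, 9384, 5015 and 5452 bp. The region over the printed Per1 start site, chr11:69098574-69100073, was 394, 1500, 428 and 230 bp wide, so KrasLA1 replicate 2 alone was wide. Per2 had 3532, 6598, 4100 and 4844 bp in 6 regions of chr1:91436240-91465871. KrasLA1 replicate 2 was again the highest there. Cry2 had 3905, 4219, 4610 and 3342 bp in 6 regions of chr2:92423603-92460811, and its start site region was 953, 1016, 783 and 778 bp. Unlike most chains, it had the most covered bp in KrasLA1;Dicer1S2D replicate 1. Nr1d1, with Thra and Msl1, had 3758, 5746, 4185 and 4168 bp in 6 regions of chr11:98762755-98795361. The time of day at which the tumours were taken is not given in the labels.

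Several of the chains with most regions held other groups of genes. Bmf, which encodes a pro-apoptotic BCL2 relative, and Srp14 share 12 regions in chr2:118479205-118555012, with 6274, 7227, 7002 and 5633 bp. Ggcx, Vamp5, Vamp8 and 4 further genes share 11 regions in chr6:72344468-72416735, with 7964, 9740, 6917 and 7326 bp. A chain of 11 regions at chr8:105240999-105327033 holds 12 coding genes, among them Tradd, E2f4 and Hsf4, with 7869, 9059, 7236 and 7599 bp. In all 3, KrasLA1 replicate 2 had the most covered bp. Gramd2 holds 10 regions in chr9:59679996-59733644, with 5249, 7306, 6474 and 5316 bp. Bbc3, another pro-apoptotic gene, lies with Sae1 and Ccdc9 in 9 regions with 7077, 7796, 6650 and 7646 bp. Ahnak/Eef1g/B3gat3 had 9 regions in a span of 78122 bp, with 6524, 7706, 6177 and 6234 bp. Actb/Fbxl18 had 9 regions, with 3732, 5521, 4139 and 3805 bp. The same library was highest in these 4 chains, by the least in Sae1/Bbc3/Ccdc9.

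**Figure D3:**
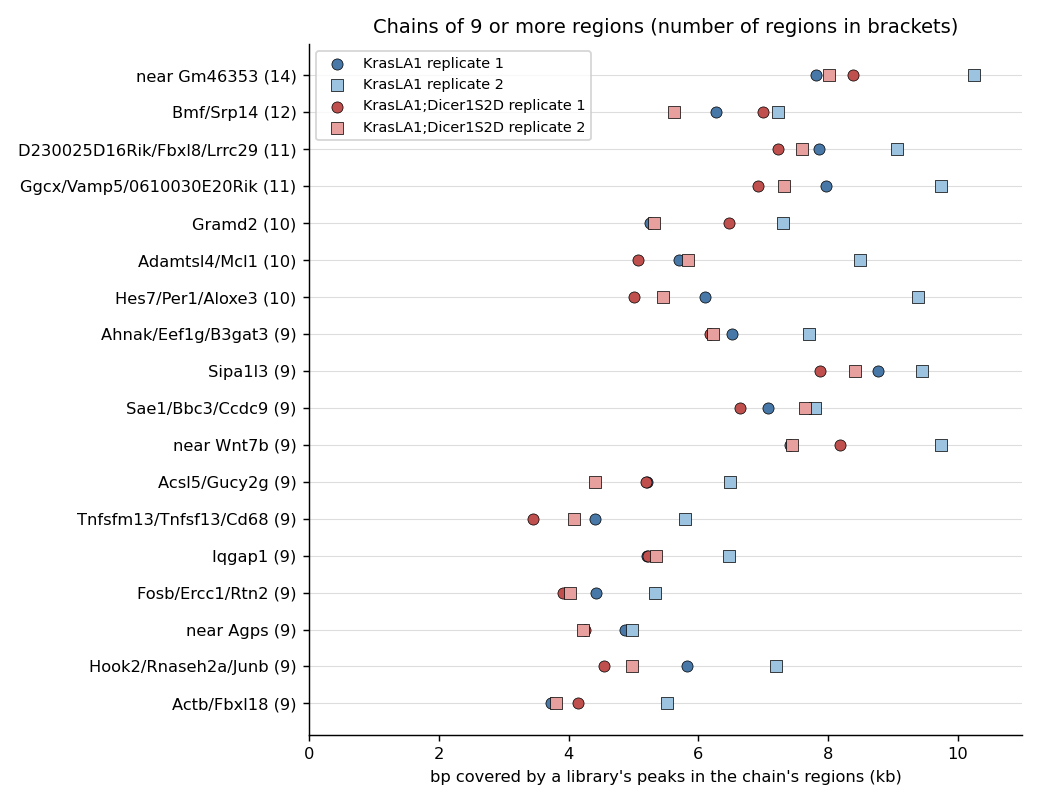
Covered bp, in kb, of each library's peaks in the regions of the 18 chains with 9 or more regions, 1 point per library. KrasLA1 replicate 2 lies to the right of the other 3 libraries in each of them.

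Transfer RNA genes were also found in dense chains. The 33 tRNA genes in chain spans, of 391 on autosomes, lay in 5 chains: 14 in Abt1, 9 in Trim27, 7 in Hes7/Per1/Aloxe3, 2 in Pik3c2b/Mdm4 and 1 in Fbxo31/Map1lc3b. Of these genes 24 lay in a chain region, in 15 regions. Counting tRNA genes was also decided after the chains had been seen. The Trim27 chain was one of the densest, at 190 bp per kb, with 3579, 5436, 4069 and 3769 bp in 22164 bp. Lag3/Mlf2/Ptms (179 bp per kb) and a chain in the gamma protocadherin cluster (179 bp per kb) completed the 5 densest with Cebpa and the histone cluster.

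MicroRNA genes lay in 7 chain spans, and none of the 5 with a hairpin in the RefSeq sequence table overlapped a chain region. They were Mir1934, Mir6939, Mir1896, Mir6986 and Mir146b. Since Dicer1 is the altered enzyme, the mature products of Mir146b, which is known to damp NF-kB signalling, are shown, with the seed (bases 2 to 8) in capitals. Its hairpin lies at chr19:46342762-46342870, plus strand, in the chain of Cuedc2, Mfsd13a, Fbxl15 and Psd.
mmu-miR-146b-5p: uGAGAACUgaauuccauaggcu
mmu-miR-146b-3p: gCCCUAGGgacucaguucuggu
Peaks covered 6166, 7171, 5324 and 5867 bp in the 6 regions of that chain. The seeds of the 2 arms differ, and the levels of the microRNAs were not measured.

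Set apart from the rest, 4 chains with 24 regions held only regions within 2 kb of a gene end. The histone chain H1f1/H2ac4/H2bc3, chr13:23745475-23764010, holds 8 histone genes in 18536 bp, the shortest span, and was the densest chain at 236 bp per kb. Its 6 regions had 4169, 5277, 3915 and 4127 bp. Abhd8/Ano8/Dda1, chr8:71463346-71489079, had 4011, 4033, 3078 and 3884 bp. Of the 2 on chromosome 17, both in or beside the major histocompatibility complex, Rgl2/Daxx/Pfdn6, chr17:33908531-33941051, also holds Tapbp, a gene of peptide loading, and had 4579, 5824, 4424 and 3644 bp. Abhd16a/Clic1/Ddah2, chr17:35046718-35089796, had 3778, 5167, 4167 and 4287 bp. The median span of these 4 was 29127.5 bp and their median density 144 bp per kb, against 41370 bp and 108 bp per kb over all 133.

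Regions of dense chains were compared with the other shared regions in width, which the rule did not use. Their median was 553, 724, 565 and 526 bp, against 606, 713, 611 and 563 bp. The chain regions were narrower in 3 of 4 libraries and wider in KrasLA1 replicate 2, a mean difference of -31.3 ± 28.9 bp (SD, n = 4, exact two-sided sign-flip permutation test, p = 0.25). The smallest p that 4 libraries allow is 0.125. Split by position, regions at gene ends were narrower in dense chains in 4 of 4 libraries, with medians of 705, 854, 702 and 654 bp against 809, 881, 771 and 742 bp. That mean difference was -72 ± 33.2 bp (SD, n = 4, exact permutation p = 0.125, adjusted over the 3 classes 0.375). Regions elsewhere in genes differed by 20.4 ± 33.8 bp (SD, n = 4, exact permutation p = 0.375, adjusted 0.563) and regions outside genes by 5.88 ± 31.1 bp (SD, n = 4, exact permutation p = 0.75, adjusted 0.75). This split was chosen after the overall difference had been seen.

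**Figure D4:**
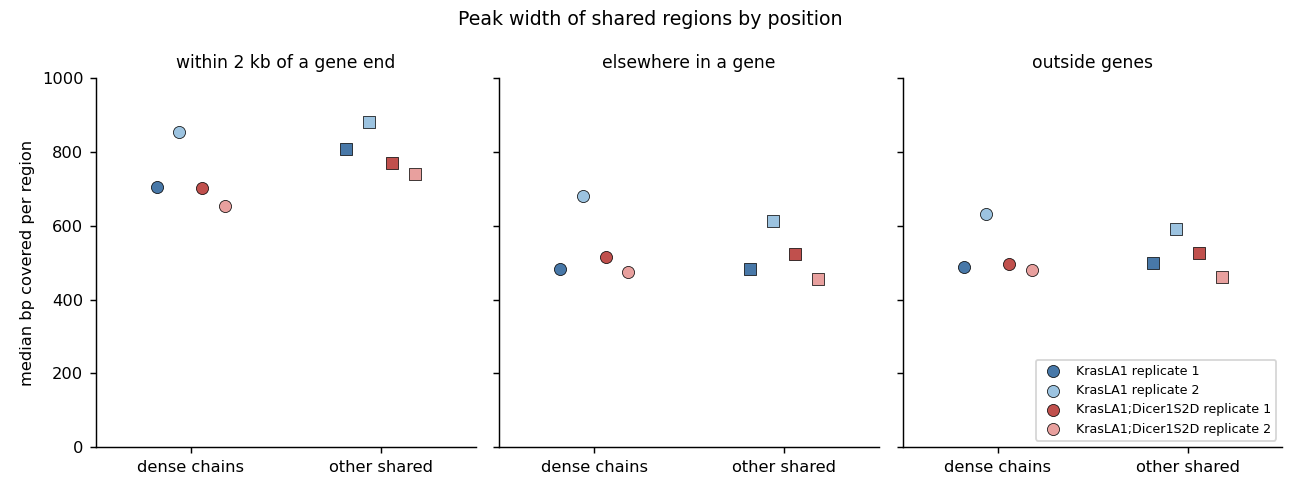
Median bp covered by a library's peaks per region, for regions of dense chains (circles) and other shared regions (squares), in 3 classes of position, with 1 point per library. At gene ends each library's circle lies below its square.

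Between genotypes, peaks covered less of the chain regions on average in KrasLA1;Dicer1S2D, and the size of that difference rested on the KrasLA1 libraries. They covered 588 and 741 kb in KrasLA1 replicates 1 and 2, and 584 and 552 kb in KrasLA1;Dicer1S2D replicates 1 and 2. Group means were 665 ± 108 kb and 568 ± 22.7 kb (SD, n = 2 each), a difference of -96.2 kb (exact two-sided permutation test, p = 0.333, the smallest that 2 against 2 allow). KrasLA1 replicate 2 had the most covered bp in 122 of the 133 chains. Without that library, with chains made from regions called in the other 3, the difference was -25.8 kb, and without KrasLA1 replicate 1 it was -241 kb. As a share of all bp under a library's autosomal peaks, chain regions held 2.64%, 2.72%, 2.39% and 2.96%. On that scale the groups differed by -0.00205 percentage points (exact two-sided permutation test, p = 1), with KrasLA1;Dicer1S2D at both extremes. There were 954, 930, 986 and 966 peaks in the chain regions, a mean of 34 more in KrasLA1;Dicer1S2D than in KrasLA1 (exact permutation p = 0.333, two-sided). A region that is 1 peak in 1 library can be several in another.

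For a comparison chain by chain, the log2 of covered bp was centred on the median of all 18306 chains in each library (794, 891, 787.5 and 733 bp). In 32 of the 133 dense chains (24.1%) both KrasLA1;Dicer1S2D libraries were then below both KrasLA1 libraries, and in 5 (3.76%) above. Among all 18306 chains these shares were 11.9% below and 16.3% above. The median difference was -0.05 (log2) over dense chains and 0.02 over all chains. Chains of 2 to 5 regions lay between, with a median of -0.004, and chains of 1 region lay beyond all chains, at 0.03. The 153 chains of 5 regions had a median of -0.04, near that of dense chains. Chains of 2 to 5 regions were below in 14.7% and above in 13.6%, and chains of 1 region in 10.7% and 17.5%. The counts of dense chains without overlap depended on the scaling and on KrasLA1 replicate 2, and the shares over all chains moved as well. With no centring 61 dense chains were below and 0 above, against 28.3% and 3.37% of all chains. With quantile normalization 18 were below and 15 above, against 11.6% and 16.5%. Without KrasLA1 replicate 2 they were 39 below and 51 above, against 29.4% and 35.9%.

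The limma test found no chain that differed between genotypes. At an adjusted p under 0.05 it called 0 of 133 dense chains and 0 of all 18306 (0%), and at an unadjusted p under 0.05 it called 0 of 133 dense chains, against 2.94% of all chains. The replicate block did not change those 2 counts of dense chains. Of 26402 shared regions it called 0 at an adjusted p under 0.05 (0%). At an unadjusted p under 0.05 it called 36 of the 927 chain regions, beside 2.92% of all shared regions in either direction. Of those 36, 30 were narrower and 6 wider in KrasLA1;Dicer1S2D. This split was not counted over all shared regions, so it is not a result about chain regions. The median difference (log2) was -0.02 over chain regions and 0.04 over all shared regions. Without KrasLA1 replicate 2 these medians were 0.0009 and -0.0016, so the direction depended on that library. In simulated data, with each region's spread set to its estimate from these libraries, the test recovered 0% of regions changed 4-fold. Estimates from 2 libraries a group are more uneven than the true spread, so this recovery can be too low. A count of 0 does not show that widths were equal.

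**Figure D5:**
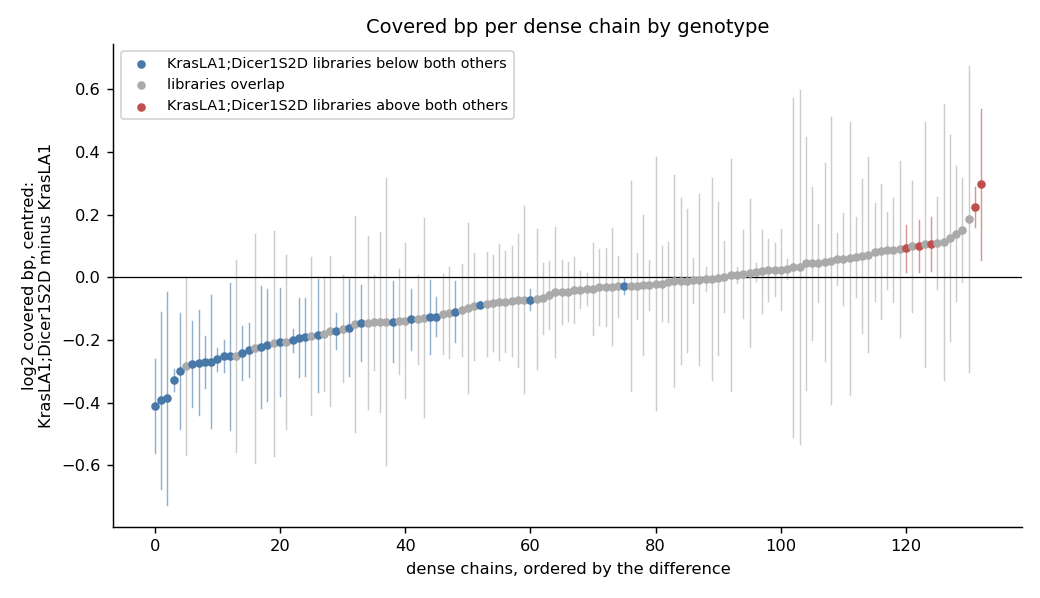
Difference of centred log2 covered bp, KrasLA1;Dicer1S2D minus KrasLA1, for the 133 dense chains in order, with vertical lines for the range of the 4 differences between a library of one group and a library of the other. Red marks the 5 chains with both KrasLA1;Dicer1S2D libraries above both others, blue the 32 with both below, and grey the 96 that overlap.

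Among the chains with the lowest centred difference without overlap were those near Irs2, Hes7/Per1/Aloxe3, Piezo1/Aprt/Cdt1 and Hook2/Rnaseh2a/Junb. Irs2 encodes an adaptor of the insulin receptor, and the chain of 6 regions at chr8:10910326-10954114, 30567 bp from it, had 3921, 5086, 3244 and 2840 bp. Its difference was -0.41 ± 0.18 (log2, SE), with an adjusted p of 0.9996 by limma. The chain held 4 regions without overlap, all narrower in KrasLA1;Dicer1S2D, among them chr8:10935291-10937144 with 1716, 1771, 1281 and 865 bp.

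Piezo1, which encodes a channel opened by stretch, had 6035, 7056, 4884 and 4515 bp in 8 regions of chr8:122523265-122577167, a difference of -0.33 ± 0.16 (log2, SE). There 5 of 8 regions were narrower without overlap, and chr8:122546222-122547298 in the gene was 533, 1077, 155 and 263 bp wide.

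The Per1 and Junb chains, whose bp are given above, had differences of -0.39 ± 0.23 and -0.30 ± 0.18 (log2, SE). In the first, 4 of 10 regions were narrower without overlap, in the second 2 of 9. Centred log2 values of the Per1 chain were 2.94, 3.40, 2.67 and 2.89, so KrasLA1 replicate 1 lay just above KrasLA1;Dicer1S2D replicate 2. Without KrasLA1 replicate 2, with regions and centring taken anew, the differences were -0.15 for the Per1 span and -0.13 for the Junb span. They were -0.30 near Irs2 and -0.29 for Piezo1. The lowest limma p of any chain region, 0.00214 (adjusted p = 0.999), belonged to chr11:69117762-69118932 at the end of Hes7, a transcriptional repressor gene, with 1026, 1171, 400 and 448 bp. The next, 0.00222 (adjusted p = 0.999 by limma), was the region between Junb and Hook2 given above.

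On the other side, Cfap45/Igsf9/Tagln2 had a difference of 0.30 ± 0.22 (log2, SE), with 3438, 5367, 4930 and 4602 bp in 8 regions of chr1:172481571-172532922. Centred log2 values were 2.11, 2.59, 2.65 and 2.65, so KrasLA1 replicate 1 was low and KrasLA1 replicate 2 lay just below both KrasLA1;Dicer1S2D libraries. Without KrasLA1 replicate 1, with regions and centring taken anew from the remaining libraries, the difference over this span was -0.15. Cyhr1/Kifc2/Ppp1r16a, chr15:76639348-76683621, had 3927, 4171, 4497 and 4049 bp in 6 regions, a difference of 0.22 ± 0.16 (log2, SE), and 3 of its regions were wider without overlap. Hes1, a target of Notch signalling, had 4383, 5292, 4730 and 4545 bp in 8 regions of chr16:30039250-30071097, Dlgap1 had 3691, 4453, 4183 and 3718 bp, and C1rl/C1ra, complement protease genes, had 3520, 3753, 3532 and 3502 bp. Their differences of 0.09, 0.11 and 0.10 (log2) turned to -0.055, -0.040 and -0.047 without centring.

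Over the 927 regions, 444 were wider and 483 narrower in KrasLA1;Dicer1S2D by their mean centred log2 width. Without overlap, 124 regions (13.4%) were wider and 135 (14.6%) narrower, against 16.9% and 10.8% of all shared regions. By position, the median difference was -0.03 (log2) at gene ends, -0.04 elsewhere in genes and 0.01 outside genes, against 0.03, 0.04 and 0.06 over all shared regions of those classes. Of the 23 chains with no gene-end region, 1 was above and 1 below without overlap. Of the 60 with some but under 50% of regions at gene ends, 2 were above and 17 below, and of the 50 with 50% or more, 2 were above and 14 below. Over all chains 16.3% were above and 11.9% below, and the difference between these sets was not tested.

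The spans of dense chains held 1145 regions, of which 927 (81.0%, against 43.5% of all autosomal regions) were called in all 4 libraries, as the rule favours, and 218 were not. Of those 218, 104 were called in 1 library, 61 in 2 and 53 in 3, and 66, 140, 126 and 53 of them were called in the 4 libraries in order. Only 3 were present in KrasLA1;Dicer1S2D replicates 1 and 2 and absent from both KrasLA1 libraries, 0.262% of span regions against 0.596% of all autosomal regions. These gained regions lay in the Ptpn1, Tprkb/Nat8f1/Nat8f4 and Rad51b chains and were 276, 200 and 274 bp wide. The reverse pattern, lost, was found in 9, 0.786% against 1.42%. The widest lost regions were chr12:8779897-8780827 in the Sdc1 chain, 931 bp, chr15:85671357-85671995 near Wnt7b, 639 bp, and chr8:107118898-107119522 in the Cyb5b chain, 625 bp. Of regions not called in all 4 libraries, 1.38% were gained and 4.13% lost within spans, and 1.06% and 2.51% over the autosomes. With 2 libraries a group, presence has no replicate test that reaches 0.05.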

How the data were processed

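ATAC-seq peaks of 4 mouse lung tumours, 2 per genotype, were used, with groups, replicate numbers and sex from the labels. The deposited file holds 5 tracks of interval positions in mm10 per the file headers, 1 per library and 1 of the authors' merged regions, with a chromosome, start, end and name and no other value. Per the submitters' processing notes BWA 0.7.12, MACS3 3.0.0 and deepTools 3.5.1 were used, with settings, read numbers and any shift of reads not given in the sources used here. A company, Active Motif, made the libraries, per the labels. Each track matched a label, and the file held 0 columns of other samples. A wide peak can come from more reads as well as from more open DNA, and a peak under an unknown limit is recorded as absent.

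Chains, covered bp and counts were computed in Python 3.11.15 with numpy 2.4.6. Covered bp are the bases of a library's peaks inside a region, with pseudocount 0. Genes came from RefSeq for GRCm38.p6, the primary assembly of mm10, and 250 of the overlapped genes matched the promoter table. limma 3.58.1 in R 4.3.3 was fitted on log2 width of all 26402 shared regions and all 18306 chains, centred on each library's median, with Benjamini-Hochberg adjustment and a threshold of 0.05. Group values were compared with exact permutation tests over libraries. Each library is 1 mouse, so the tests rest on the spread between these mice. The 2 mice of a group differ in sex, so that spread holds any difference by sex. The limma p-values also draw on the spread over all regions or chains fitted.

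Named chains were the 10 with most regions, the 5 longest, the 5 densest, the gene-end-only chains, the 5 per direction with the largest difference among those without overlap, up to 3 genes per list, and 2 on each side of the limit. Chains beyond these were named as whole groups, or after their values were seen, and some are not reported here. The members, the lists and the rules were chosen with earlier results of these data known.

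On simulated data all 169 planted chains were found. The limma step recovered 0% of 2-fold and 4-fold changes among 26402 regions with each region's spread as estimated from these libraries. It recovered 100% of both with an equal small spread. Alternatives covered the merging of peaks, the widest 75% of peaks, equal numbers of peaks, the gap, the minimum number of regions, the gene-end window, X and Y, the scaling, a minimum width of 200 bp, a pseudocount of 100 bp, each library left out and a replicate block.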

Additional observations from a re-analysis of the deposited data

How the results depend on the processing

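Depth was unknown, and widths of 2 libraries a group limit every comparison of genotypes. The number of dense chains, 133 with 927 regions, was within 1.5 times under other merging and with X and Y, and followed the limits of the rule. The widest 75% of peaks gave 37 chains with 248 regions, equal numbers of widest peaks 62 with 425, a gap of 5000 bp 3 with 21, a gap of 25000 bp 649 with 5280, and a minimum of 8 regions 35 with 313. Leaving out 1 library gave 142 to 228 chains with 1004 to 1595 regions, the most without KrasLA1;Dicer1S2D replicate 2. Of the 38 named chains, 12, 17, 2 and 17 still held enough regions under the widest 75%, equal numbers, the 5000 bp gap and the minimum of 8. Gene-end-only chains, 4 as reported, were 2 with peaks merged across 500 bp, 2 with the widest 75%, 1 with equal numbers, 1 with a gap of 5000 bp, 19 with 25000 bp, 0 with a minimum of 8, 13 with a 5 kb window and 3 to 6 with 1 library left out.

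The genotype difference in covered kb kept its sign in every alternative, from -241 to -25.8. The share of peak bp turned to 0.00435 percentage points with peaks merged at 50% overlap and 0.00306 with the widest 75%, and ran from -0.425 to 0.304 with 1 library left out. Chains without overlap, 5 above and 32 below, were 0 and 61 with no centring (3.37% and 28.3% of all chains) and 15 and 18 with quantile normalization (16.5% and 11.6%). With 1 library left out, where 2 libraries face 1, they were 12 to 51 above and 39 to 89 below (34.3% to 36.0% and 27.6% to 30.2% of all chains). Gained regions in spans, 3, were 1 with the widest 75%, 1 with equal numbers and 6 to 66 with 1 library left out. Lost regions, 9, were 0, 1 and 24 to 79 in the same order. With 1 library left out, 2 libraries face 1 in this pattern too, and the chains were made anew. Shares over all autosomal regions were not computed in these settings, so the counts are not a result about the spans. The single-chain difference of C1rl/C1ra turned to -0.0475, Dlgap1 to -0.0399 and Hes1 to -0.0548 with no centring. That of Cfap45/Igsf9/Tagln2 ran from -0.145 without KrasLA1 replicate 1 to 0.541 without KrasLA1 replicate 2. In both cases regions and centring were taken anew from the remaining libraries. Causes were not tested.

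limma called 0 regions and 0 chains in every setting that kept all 4 libraries and in which it was run. It was not run with other merging or choices of peaks, other gaps or another minimum number of regions. With the replicate block it also called 0 of each, and 51 of 927 chain regions had an unadjusted p under 0.05, against 36 without it. Over all 26402 shared regions the count rose as well, to 1192 with the block from 770 without it. Deviations of same-numbered libraries correlated at 0.12 over shared regions and 0.06 over chain regions, so with 2 pairs the numbers were not taken to pair the libraries.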

Other observations

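With X and Y included there were 135 dense chains with 940 regions, 2 of them on X, at X:7648624-7697593 with 7 regions and X:140505652-140543603 with 6. Among the 16 pairs of dense chains closer than 500 kb, 3 chains followed each other on chromosome 6 (Atoh8, Ggcx/Vamp5 and Tcf7l1/Tgoln1, 99238 and 199830 bp apart) and 3 on chromosome 8 (near Irf2bp2, Irf2bp2 and near Tomm20, 17282 and 210171 bp apart). Id2, a gene for an inhibitor of helix-loop-helix factors, had a chain of 6 regions over it and another of 6 regions 162410 bp further on.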
